A study of Sus scrofa with 11 samples.

Results

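Pig liver that had received 40 Gy of hepatic irradiation was compared with control liver, as RNA levels of 11644 genes. The 5 libraries compared were chosen by their labels alone from the 11 of the series, and are 3 of irradiated liver (40Gy-1, 40Gy-2, 40Gy-3) and 2 of control liver (control-1, control-2). The other 6 libraries are 3 each at 20 and 30 Gy. Gy is the gray, the unit of absorbed radiation dose. Both controls are labelled day 0 and the irradiated libraries day 35, and in the comparison with control the effects of dose and of time cannot be told apart. Every library is labelled wild type, with liver as the tissue, and no other allele or agent is named for any group. The labels give neither breed nor age nor sex. They do not tie the libraries of a group to separate animals. The spread behind each p-value is that between libraries and may be technical. Hepatocyte stands in the labels both as cell type and as cell line, whereas the RNA was taken from whole livers.

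The series title names veno-occlusive liver disease, in which the small hepatic vessels narrow and blood backs up into the sinusoids, and ferroptosis, a form of cell death in which iron drives the peroxidation of membrane lipids. Hepatocytes, the main cells of the liver, burn and store fatty acids, dispose of nitrogen as urea, detoxify drugs and secrete most plasma proteins. Radiation breaks DNA and forms reactive oxygen species, which cells answer through p53, which arrests damaged cells, and through NRF2, which switches on antioxidant genes. Healing livers divide again, and activated stellate cells lay down collagen.

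Levels are given in FPKM, as the authors deposited them: the number of sequenced fragments of a gene, divided by the length of its transcripts and by the total of its library. They are always listed in the same order, first control-1 and control-2 and then the 40 Gy libraries by number. Differences are on the log2 scale of FPKM + 1, which understates the change of weakly expressed genes. A gene is said to have risen or fallen where the Benjamini-Hochberg adjusted p of limma, over all genes tested, was under 0.05. Each SE is that of the difference. The model estimated 1 spread per gene from all 11 libraries, with 7 residual degrees of freedom, so the 20 and 30 Gy libraries bear on each p.

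All 13 genes of the hepatocyte list that the table holds were above 0 in each of the 5 libraries. Their summed FPKM was 102305 and 65931 in control and 41469, 38127 and 40412 at 40 Gy. In control ALB and APOC3 were the largest parts of that sum, and both fell. Of the 13 genes, 6 lay below both controls in all 3 libraries at 40 Gy, beside 17.9% of all genes, and none above. HNF4A, CPS1 and TAT lay below both controls in 40Gy-1 and above both in 40Gy-2 and 40Gy-3. FGB was also above both controls in 40Gy-2 and 40Gy-3. In such bulk samples, fewer cells of a type and less RNA per cell cannot be told apart. Genes of stellate cells, endothelium, macrophages and bile ducts were measured too, at far lower sums. The libraries held 10236 to 10866 genes at 1 FPKM or more. The depth of sequencing is unknown, since the files hold no counts, and errors given here come from the scatter among libraries.

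40Gy-1 stood apart from the other libraries of its group. Over 6550 well expressed genes, the log2 ratio of 40Gy-2 to 40Gy-3 had an SD of 0.352, and that of the 2 controls an SD of 0.526. 40Gy-1 lay 0.976 from 40Gy-2 and 1.01 from 40Gy-3, farther than from control-1 (0.879) or control-2 (0.909), and it lay nearest to 20Gy-2 (0.76). Its FPKM summed to 520839, the lowest of the series (643067 to 949840 in the others), and its 10 most abundant genes took 18.2% of that sum, against 26.2% to 35.6%. EIF1AY, a translation initiation factor gene on the Y chromosome (Sscrofa11.1 chrY:9687350-9704489), is listed at 0 in 40Gy-1 and at 13.7 to 23.1 FPKM in the other 10 libraries. In all, 10 genes of at least 1 FPKM in every other library are listed at 0 in 40Gy-1, against 0 to 1 such genes in the other libraries. The most abundant of the 10, ENSSSCG00000018076, which has no symbol, was at 14186 to 92354 FPKM in the other 10 libraries and so enters both the sum and the share of the top 10 genes. The genes described in full below are therefore given library by library, and the counts of the lists also without 40Gy-1. Among the lower doses, the pair 20Gy-3 with 30Gy-3 (SD 0.217) and the pair 30Gy-1 with 30Gy-2 (0.222) were nearly identical, and the model treats them as separate libraries.

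**Figure D1:**
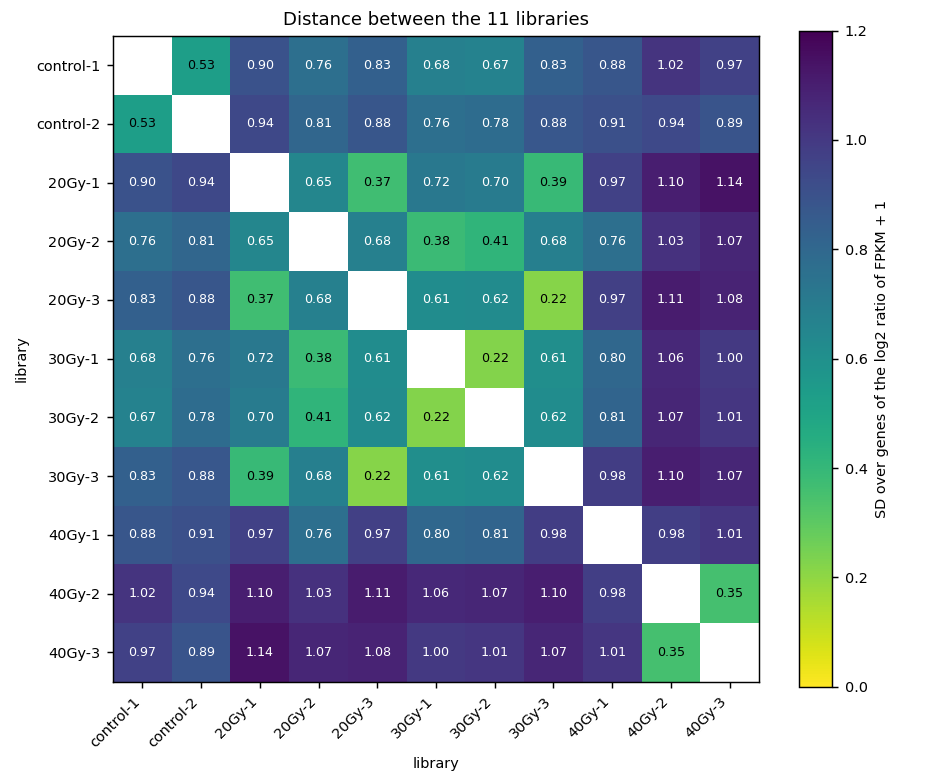
Distance between libraries, as the SD of the log2 ratio of FPKM + 1 over 6550 genes, for each pair among the 11 libraries. 40Gy-2 and 40Gy-3 are close to each other (0.352), while 40Gy-1 is 0.976 and 1.01 from them and nearest to 20Gy-2 (0.76).

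Between 40 Gy and control, 861 of 11644 genes passed the test (7.39%), 348 of them higher at 40 Gy (2.99%) and 513 lower (4.41%). At an unadjusted p under 0.05 the count was 2883 (24.8%). All 3 irradiated libraries lay above both controls for 2272 genes (19.5%) and below both for 2084 (17.9%), 4356 together (37.4%), and the median log2 difference over all genes was 0.06. The count rests on the shared spread and on single libraries. Fitted on the 5 libraries alone, 48 genes passed, 25 higher and 23 lower. Where a call is said below to be lost without a library, the value in brackets is its adjusted p in that fit. Leaving out 1 library at a time gave 224 genes without control-1, 274 without control-2 and 354 without 40Gy-2. It gave 526 without 30Gy-2 and 545 without 30Gy-1, and without 40Gy-1 it gave 2655, of which 1345 were higher (11.7% of the genes tested there) and 1310 lower (11.4%). Counts of a list are to be read beside 2.99% of all genes higher and 4.41% lower. Those without 40Gy-1 are to be read beside 11.7% and 11.4%. When the near-identical 30 Gy pair was averaged and the other near-identical pair omitted, a setting chosen with their likeness known, 123 genes passed.

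Of the 12 largest rises at 40 Gy, the first were those of GLOD5, of the retinoic acid hydroxylase CYP26A1 and of the receptor TNFRSF12A, and they also hold SCD, a fatty acid desaturase described with the lipid genes. GLOD5, a glyoxalase-domain protein (ENSSSCG00000031477, chrX:42877034-42889285), stood at 1.67 and 7.41 FPKM in control against 45.6, 182 and 221. It rose by 4.70 (SE 0.658, adjusted p = 0.0038), with 40Gy-1 the lowest of the irradiated libraries and still above both controls. CYP26A1, which degrades retinoic acid (ENSSSCG00000010475, chr14:104561394-104567099), was at 2.39 and 1.72 against 29.7, 65.1 and 73.9 FPKM. Its rise was 4.13 (SE 0.412, adjusted p = 0.00109), again smallest in 40Gy-1 and with no overlap. TNFRSF12A, the receptor of the cytokine TWEAK (ENSSSCG00000027130, chr3:39166288-39168294), went the other way among the irradiated libraries: 0.731 and 1.09 against 56.7, 23.2 and 25.6 FPKM. It rose by 4.13 (SE 0.713, adjusted p = 0.00891), with 40Gy-1 highest. IER3, an early stress-response gene, was at 1.97 and 3.02 FPKM against 33, 33.1 and 32.5, so that the irradiated libraries were level with one another (3.29, SE 0.822, adjusted p = 0.0403). MARCO, a scavenger receptor of macrophages, was at 11.7 and 0.77 against 79.2, 21.9 and 30.4 FPKM (3.03, SE 0.757, adjusted p = 0.0404). The controls differed from each other and still lay below all 3. At 20 and 30 Gy MARCO was at 18 to 40.6 FPKM, which overlaps the range at 40 Gy.

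SRXN1, sulfiredoxin, which restores oxidized peroxiredoxins and is a classical NRF2 target (ENSSSCG00000023298, chr17:34582377-34589308), was at 1.4 and 2.46 FPKM in control and at 13.8, 27.9 and 29.2 at 40 Gy. It rose by 3.02 (SE 0.357, adjusted p = 0.00206). FSTL3, a secreted antagonist of activins (ENSSSCG00000037102, chr2:77656655-77662608), was at 13.6 and 17.6 against 117, 154 and 114 FPKM, a rise of 2.96 (SE 0.351, adjusted p = 0.00206) of like size in each irradiated library; it overlaps PRSS57. ITIH4, a plasma protein of the acute phase, was at 1166 and 918 against 3219, 13251 and 12816 FPKM (2.98, SE 0.592, adjusted p = 0.0163), with 40Gy-1 far below the others of its group but above both controls; it overlaps LOC100153598. CCL11, the eosinophil chemokine eotaxin, is listed at 0 and 0.0493 FPKM in control against 3.46, 7.02 and 10.1 (2.84, SE 0.303, adjusted p = 0.00134). TMEM52B, a membrane protein, was at 0.268 and 3.54 against 13.4, 19.6 and 21.4 FPKM (2.97, SE 0.429, adjusted p = 0.00432). SBSPON, a matrix protein, was at 1.55 and 1.68 against 7.02, 26.8 and 23.6 FPKM (2.75, SE 0.433, adjusted p = 0.0064). In these genes except FSTL3, 40Gy-1 was the lowest of the 3 irradiated libraries. For the rises of this and the preceding paragraph, leaving out control-1 ended the calls of TNFRSF12A (adjusted p = 0.0781), ITIH4 (0.0873) and SBSPON (0.0537). Leaving out control-2 ended those of TNFRSF12A (0.0554) and ITIH4 (0.103), and leaving out 40Gy-2 that of ITIH4 (0.0593). IER3 was lost without each of 7 libraries, all but 20Gy-2, 30Gy-1, 30Gy-3 and 40Gy-1 (0.0518 to 0.207). MARCO was lost without each of 8, all but control-1, 30Gy-3 and 40Gy-1 (0.0501 to 0.252).

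The deepest fall was that of APOA4, an apolipoprotein of lipid transport (ENSSSCG00000040689, chr9:44201587-44204072). Its level was 2523 and 4266 FPKM in control and 35.2, 34.3 and 46.2 at 40 Gy. All 3 libraries at 40 Gy lay close together and far below both controls, a fall by 6.39 (SE 0.367, adjusted p = 3.68e-05). At 20 and 30 Gy APOA4 was lower still, at 8.54 to 18.5 FPKM (limma, 1.55 higher at 40 Gy, adjusted p = 0.00553). CCL16, a chemokine made by the liver (ENSSSCG00000040940, chr12:39618187-39621557), was at 1023 and 894 against 59.6, 57.7 and 110 FPKM, and fell by 3.71 (SE 0.306, adjusted p = 4.02e-04). ACSL1, which activates fatty acids with coenzyme A (chr15:45866858-45936327), was at 681 and 813 against 148, 22.8 and 22.2 FPKM, and fell by 4.10 (SE 0.699, adjusted p = 0.00874). SLC25A34, a mitochondrial carrier (chr6:74909637-74914430), was at 40.8 and 60.6 against 5.31, 2.23 and 1.63 FPKM, and fell by 3.75 (SE 0.478, adjusted p = 0.00254). GPD1, which links glycolysis to glycerolipid synthesis, was at 220 and 228 against 45.9, 13 and 13.1 FPKM, and fell by 3.42 (SE 0.503, adjusted p = 0.00454); it overlaps LOC110260660. CIDEC, a lipid droplet protein, was at 17.6 and 21.5 against 4.11, 0.259 and 0.199 FPKM, and fell by 3.37 (SE 0.521, adjusted p = 0.00591). In the last 4 of these genes 40Gy-1 lay between the controls and the other 40 Gy libraries. At 20 and 30 Gy the means were 921 FPKM for CCL16, 5.43 for SLC25A34 and 6.15 for CIDEC. They were 230 for ACSL1 and 70.7 for GPD1.

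LAMB3, a laminin chain of basement membranes, was at 40 and 47.6 FPKM in control and at 7.95, 1.6 and 0.984 at 40 Gy (log2 difference -3.64, SE 0.548, adjusted p = 0.00516). PMM1, a phosphomannomutase, was at 60.1 and 162 against 12.9, 6.68 and 8.33 FPKM (-3.32, SE 0.395, adjusted p = 0.00206). At 20 and 30 Gy LAMB3 averaged 24 FPKM and PMM1 5.05. In the fit on the 5 libraries alone the calls of LAMB3 (adjusted p = 0.0883), PMM1 (0.0707) and GPD1 (0.0843) were lost. The rest of the 12 largest falls, given next, had larger SEs than LAMB3 and PMM1. CYP2A19, a drug-metabolizing cytochrome P450, was at 120 and 107 against 3.93, 4.03 and 3.78 FPKM (-4.54, SE 1.15, adjusted p = 0.0417), with little spread inside either group. The lower doses were split, at 4.05, 4.49 and 4.11 FPKM in 20Gy-1, 20Gy-3 and 30Gy-3 and at 52.9 to 58.4 in 20Gy-2, 30Gy-1 and 30Gy-2. That spread enters the SE. HBB, the beta chain of hemoglobin, was at 820 and 106 against 53.7, 11.7 and 15 FPKM (-3.73, SE 0.975, adjusted p = 0.046), with the controls far apart from each other. GSTT4, a glutathione transferase, was at 34.3 and 44.3 against 10.1, 0.628 and 1.65 FPKM (-3.46, SE 0.616, adjusted p = 0.0104), and TMT1B at 430 and 299 against 179, 13.4 and 14.8 FPKM (-3.38, SE 0.861, adjusted p = 0.0425). P450s, glutathione transferases and hemoglobins have near-identical copies among which reads can be split. Among the falls of this and the preceding paragraph, ACSL1 was lost without control-1 (adjusted p = 0.0613) or control-2 (0.0656), GSTT4 likewise (0.0654 and 0.0757), and CIDEC without control-2 (0.0515). CYP2A19 was lost without each of 8 libraries, all but 20Gy-2, 30Gy-3 and 40Gy-1 (0.052 to 0.196). HBB was lost without each of 7, all but control-2, 20Gy-2, 30Gy-3 and 40Gy-1 (0.0622 to 0.314), and TMT1B without each of 10, all but 40Gy-1 (0.0555 to 0.218).

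**Figure D2:**
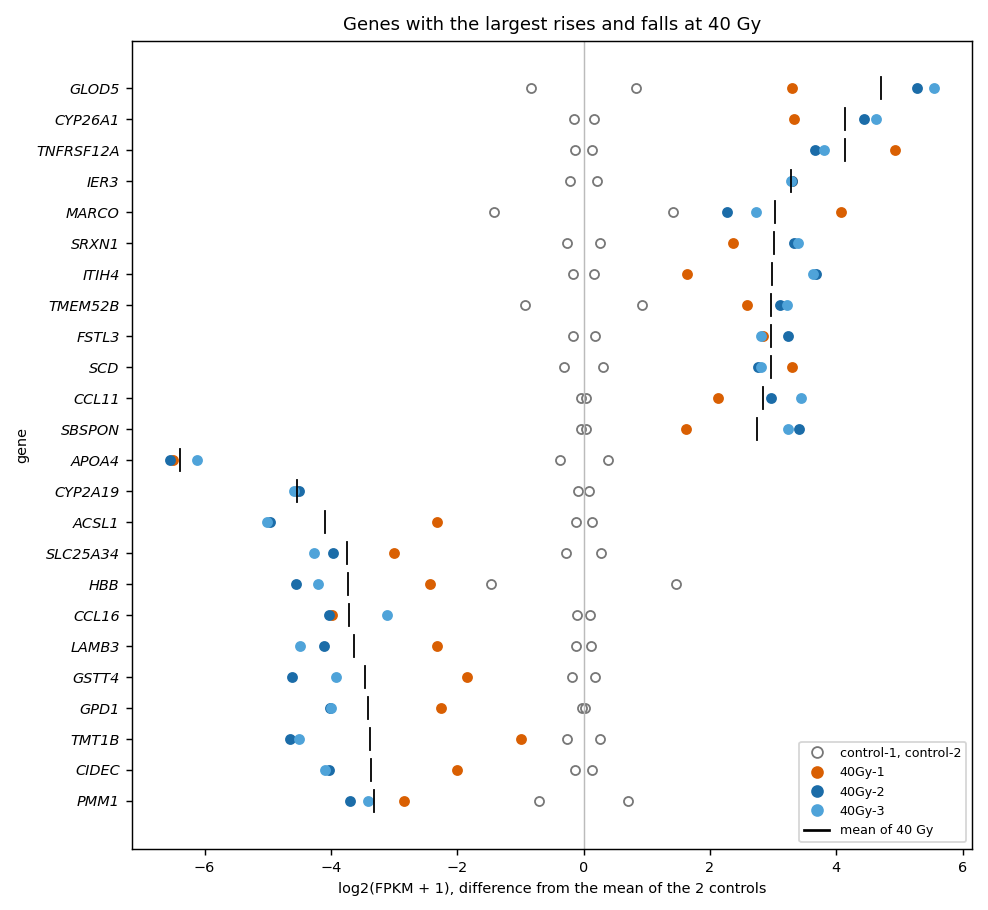
Difference in log2(FPKM + 1) from the mean of the 2 controls, for the 12 largest rises and the 12 largest falls at 40 Gy. Open circles are the controls, the orange point 40Gy-1, the blue points 40Gy-2 and 40Gy-3, and the black bar the mean at 40 Gy. APOA4 lies at -6.50, -6.54 and -6.12 in 40Gy-1, 40Gy-2 and 40Gy-3.

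Passing the test under every alternative setting was rare. Over all 25 alternatives, which include each left-out library and the fit on 5 libraries alone, 30 genes passed throughout, 15 higher and 15 lower, of which 22 have a symbol. They were picked after their values were seen. Besides CYP26A1, SRXN1, FSTL3, SCD, APOA4, SLC25A34 and CCL16, they include genes not yet named. SPI1, the transcription factor PU.1 of myeloid and B cells, was at 19.2 and 21 FPKM in control against 73.3, 87.7 and 95.2, a rise of 2.03 (adjusted p = 0.00206). PLSCR1, a phospholipid scramblase induced by interferon, was at 3.21 and 2.51 against 25.4, 20 and 16 FPKM, a rise of 2.46 (adjusted p = 7.13e-04). Both were close to level across the irradiated libraries. AMPD3, an AMP deaminase, was at 0.403 and 0.406 against 5.98, 10.1 and 8.24 FPKM and overlaps RNF141. LPO, lactoperoxidase, was at 1.13 and 0.455 against 7.36, 12 and 7.01 FPKM. SELENOI, which makes phosphatidylethanolamine, was at 3.94 and 3.33 against 16.8, 17.2 and 14.7 FPKM. All of these rose by 1.90 to 2.67. Their means at 20 and 30 Gy were 25.6 FPKM for SPI1, 3.64 for PLSCR1, 2.74 for AMPD3, 7.62 for LPO and 8.3 for SELENOI.

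Of the falls that passed throughout, ABCD3, the transporter that brings long-chain and branched fatty acids into peroxisomes, was at 62.8 and 74.6 FPKM in control against 19.7, 14.6 and 16.3. ACKR2, a decoy receptor that removes inflammatory chemokines, was at 13.6 and 11.5 against 0.889, 1.02 and 0.667 FPKM and overlaps ZNF662. TM4SF5, a tetraspan membrane protein, was at 31.2 and 29.7 against 5.83, 4.04 and 3.16 FPKM. In each of these genes the 3 irradiated libraries lay close together and well below both controls. RGS16, a regulator of G protein signalling, was at 25.8 and 17 against 3.68, 4.76 and 4.61 FPKM, CDPF1 at 114 and 127 against 32.5, 26 and 28.5, and PAFAH1B3, a subunit of platelet-activating factor acetylhydrolase, at 25.2 and 20.3 against 6.33, 5.48 and 6.75, the last overlapping PRR19. Their falls ran from -1.72 for PAFAH1B3 through -1.97 for ABCD3, -2.02 for CDPF1, -2.05 for RGS16 and -2.59 for TM4SF5 to -2.86 for ACKR2. The means at 20 and 30 Gy were 0.62 FPKM for ACKR2, 3.52 for RGS16 and 7.41 for PAFAH1B3. They were 18.6 for TM4SF5, 31.9 for ABCD3 and 32 for CDPF1. ELOVL6, CIDEB, PLIN3 and JCHAIN, also among the genes that passed throughout, are described with their groups.

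Genes of fatty acid oxidation fell at 40 Gy, from the carnitine shuttle to the thiolases. Of the 22 genes tested, 11 fell and none rose, where 4.41% of all genes fell, and 17 lay below both controls in all 3 libraries, where 17.9% of all genes did, and the median log2 difference was -1.11 beside 0.06 over all genes. The median was alike in the 3 libraries (-1.18, -1.16 and -1.25), and without 40Gy-1 14 fell and none rose. CPT1A, which forms acylcarnitine and sets the rate of entry into mitochondria, was at 50.4 and 109 FPKM in control against 23.4, 32 and 28.2, and fell by 1.40 (SE 0.281, adjusted p = 0.0173). SLC25A20, which carries acylcarnitine across the inner membrane, was at 65 and 80.5 against 23, 8.13 and 9.36 FPKM, and fell by 2.48 (SE 0.361, adjusted p = 0.00432). The groups did not overlap in either gene. ACADVL, which oxidizes very long chains first, was at 146 and 209 against 48.9, 43.5 and 46.7 FPKM, and fell by 1.89 (SE 0.265, adjusted p = 0.0038); it overlaps DLG4 and DVL2.

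Further along the route, HADHA of the trifunctional protein was at 88.8 and 102 FPKM in control against 48.4, 25.6 and 27.2 (log2 difference -1.53, SE 0.29, adjusted p = 0.0131), and the hydratase ECHS1 at 1045 and 817 against 244, 342 and 436 (-1.48, SE 0.277, adjusted p = 0.0127). The thiolase ACAA2 was at 302 and 148 against 76.6, 10.3 and 13.9 FPKM (-3.17, SE 0.733, adjusted p = 0.0294), the peroxisomal thiolase ACAA1 at 273 and 297 against 94.6, 54.4 and 64.4 (-2.03, SE 0.241, adjusted p = 0.00206; it overlaps DLEC1 and MYD88). ETFB and ETFDH, which pass the electrons on to the respiratory chain, fell by 1.41 and 1.12, and HADH and HADHB by 1.01 and 0.71. 40Gy-1 lay below both controls in each of these genes, and in CPT1A, ECHS1, HADH and HADHB it was the lowest of the 5 libraries compared. The regulator PPARA was at 9 and 6.13 against 2.96, 3.98 and 2.3 FPKM (-1.07, adjusted p = 0.0706), below both controls in all 3 and short of the threshold. The 21 respiratory chain genes gave no rise and no fall (median -0.00), and without 40Gy-1 1 rose. Without control-1 the calls of ETFB (0.079), HADHA (0.0717), ECHS1 (0.107), HADH (0.187), ACAA2 (0.205) and HADHB (0.231) were lost. Without control-2 those of CPT1A (0.085), ETFB (0.0672), HADHA (0.089), ACAA2 (0.0802) and HADHB (0.103) were lost. Without 40Gy-2 those of HADHA (0.0503), HADH (0.0629) and ACAA2 (0.0958) were lost, without 40Gy-3 those of HADH (0.0502) and ACAA2 (0.077), and without 30Gy-2 that of HADH (0.0511). HADHB was lost without each of 10 libraries, all but 40Gy-1 (0.0538 to 0.231). CPT1A, ACADVL, ETFDH and HADHB averaged 21.9, 38.8, 44.3 and 49.4 FPKM at 20 and 30 Gy. Their 40 Gy means were 27.9, 46.4, 42.8 and 57. These genes and HADHA did not pass between 40 Gy and the lower doses. ACAA2 was lower at 20 and 30 Gy, at a mean of 5.48 against 33.6 FPKM (limma adjusted p = 0.0358). ACAA1, SLC25A20, ETFB, ECHS1 and HADH passed as lower at 40 Gy.

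Genes of fat synthesis split into rising and falling members. Of the 19 tested, 5 rose and 3 fell, beside 2.99% and 4.41% of all genes, and without 40Gy-1 5 rose and 6 fell. The median of the list was 0.02, and per library 0.32, -0.06 and -0.24. SCD, which puts the double bond into oleic acid (ENSSSCG00000010554, chr14:111461560-111478033), was at 6.33 and 3.77 FPKM in control against 57.5, 39 and 40.3, and rose by 2.96 (SE 0.349, adjusted p = 0.00206). FASN, fatty acid synthase, was at 19.7 and 22.2 against 77.5, 119 and 81 FPKM, and rose by 2.06 (SE 0.247, adjusted p = 0.00206). SREBF1, the transcription factor of lipogenesis, was at 25.3 and 24.5 against 54.8, 82.9 and 52.5 FPKM, and rose by 1.29 (SE 0.264, adjusted p = 0.0183). In these 3 genes every irradiated library lay above both controls. ACLY, which supplies acetyl-CoA, rose by 0.86, and ME1, which supplies NADPH and was near 1 FPKM, by 0.92. The falls lay in chain lengthening and triglyceride assembly. ELOVL6, which lengthens palmitate, was at 55.3 and 70.3 against 9.45, 10 and 10.2 FPKM (-2.54, SE 0.315, adjusted p = 0.00232). DGAT2, the last step of triglyceride synthesis, was at 35.2 and 29.5 against 8.9, 1.02 and 0.953 FPKM (-3.29, SE 0.583, adjusted p = 0.0102), with 40Gy-1 in between, and AGPAT2 fell by 0.95. FADS1 and FADS2, the desaturases of polyunsaturated fatty acids, were far lower in 40Gy-2 and 40Gy-3 than in 40Gy-1: FADS2 was at 116 and 44.5 against 38.7, 1.95 and 2.38 FPKM (-3.31, adjusted p = 0.0554). Without control-1 the calls of DGAT2 (0.0856), SREBF1 (0.106), ACLY (0.142) and ME1 (0.151) were lost. Without control-2 the same 4 were lost, at 0.0593, 0.1, 0.0783 and 0.0774, and without 40Gy-2 SREBF1 (0.0593) and ACLY (0.0776). AGPAT2 was lost without each of 8 libraries, all but 20Gy-2, 30Gy-3 and 40Gy-1 (0.051 to 0.156).

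Of 19 genes of lipoproteins and lipid droplets 6 fell and none rose, where 4.41% of all genes fell, and 12 lay below both controls in all 3 libraries, where 17.9% of all genes did (median -0.82; per library -0.61, -1.02 and -1.14). Without 40Gy-1 9 fell and none rose. Besides APOA4 and CIDEC, CIDEB, which helps hepatocytes load very-low-density lipoprotein, was at 307 and 341 FPKM in control against 83.8, 71.1 and 60.6, and fell by 2.17 (SE 0.276, adjusted p = 0.00254); it overlaps LTB4R2 and NOP9. PLIN3, a droplet coat protein, was at 75.3 and 98.9 against 21.2, 20.9 and 25.2 FPKM, and fell by 1.90 (SE 0.241, adjusted p = 0.00254). APOC3, an abundant apolipoprotein that slows triglyceride clearance, was at 25265 and 19071 against 8380, 5602 and 6329 FPKM, and fell by 1.72 (SE 0.266, adjusted p = 0.00591). LIPC, hepatic lipase, fell by 1.60. In CIDEB, PLIN3 and APOC3 the irradiated libraries lay close together and below both controls. Without control-1 the calls of APOC3 (0.053) and LIPC (0.0812) were lost, and without control-2 that of CIDEC (0.0515).

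In cholesterol synthesis 40Gy-1 lay apart from the others of its group. Of the 23 genes tested, 2 fell and none rose, beside 4.41% and 2.99% of all genes. In 40Gy-1, 15 were more than 1 log2 higher than in the mean of 40Gy-2 and 40Gy-3, beside 11.1% of all genes. The median difference from control was 0.51 in 40Gy-1, -1.13 in 40Gy-2 and -1.27 in 40Gy-3 (-0.81 for the group), and without 40Gy-1 14 fell and none rose. MVK, mevalonate kinase, was at 181 and 153 FPKM in control against 67.9, 12.9 and 14.4, and fell by 2.77 (SE 0.567, adjusted p = 0.0182). EBP, a sterol isomerase, was at 188 and 136 against 83, 24.3 and 27.9 FPKM, and fell by 2.03 (SE 0.478, adjusted p = 0.0319). HMGCS1, at the head of the pathway, was at 16.5 and 5.02 against 78.1, 4.86 and 4.33 FPKM, so only 40Gy-1 lay above the controls (adjusted p = 0.837). MVK was lost without control-1 (0.126), control-2 (0.085), 40Gy-2 (0.0612) or 40Gy-3 (0.0505), and EBP without each of 7 libraries, all but 40Gy-1, 30Gy-3, 20Gy-2 and 20Gy-1 (0.051 to 0.197).

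**Figure D3:**
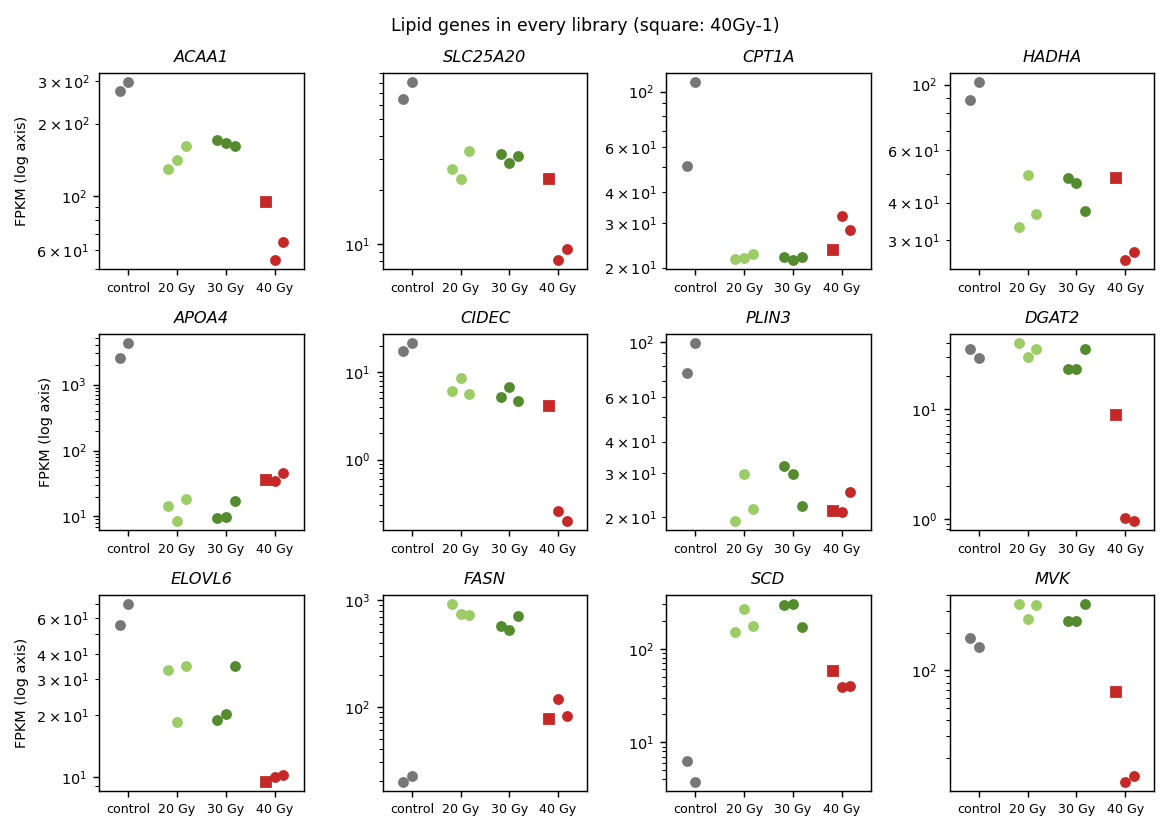
FPKM (log axis) of 12 lipid genes in every library of the 4 groups. The square marks 40Gy-1; ACAA1, SLC25A20, CPT1A and HADHA were lower at 40 Gy than in control in all 3 libraries, FASN and SCD were higher than in control but lower than at 20 and 30 Gy.

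In the lists of gluconeogenesis and of amino acid breakdown, the medians of 40Gy-1 and of the other two lay on opposite sides of control. Of 15 genes of gluconeogenesis and fasting 3 fell (medians per library -1.33, 0.34 and 0.17), and without 40Gy-1 1 rose and 3 fell. PC, pyruvate carboxylase, the entry step, was at 288 and 339 FPKM in control against 114, 162 and 117, and fell by 1.26 (SE 0.222, adjusted p = 0.0098); it overlaps LRFN4. FBP1 was at 511 and 628 against 155, 282 and 341 FPKM (-1.20, adjusted p = 0.0496), and CREB3L3, a transcription factor of the fasting liver, at 260 and 228 against 122, 19.4 and 18 (-2.75, adjusted p = 0.0302). PCK1, the rate-limiting enzyme, was at 1550 and 1401 against 303, 1866 and 1898 FPKM, low in 40Gy-1 alone (adjusted p = 0.861). Of 17 glycolysis genes 1 rose (medians per library 0.31, 0.12 and 0.22), and without 40Gy-1 1 rose and 2 fell. The rise was PFKFB3: this enzyme, which makes the activator of phosphofructokinase, was at 0.348 and 0.355 against 14.2, 6.22 and 4.28 FPKM (2.63, SE 0.352, adjusted p = 0.00316). Among 18 genes of the urea cycle and amino acid breakdown 1 fell, OTC, the urea cycle enzyme that forms citrulline, from 304 and 215 to 122, 122 and 132 FPKM (-1.02, SE 0.217, adjusted p = 0.021; it overlaps RPGR). In that list 15 genes were more than 1 log2 lower in 40Gy-1 than in the others, beside 7.04% of all genes. The medians of the list per library were -0.95, 0.62 and 0.62, and without 40Gy-1 6 rose and 1 fell. SDS, serine dehydratase, was at 226 and 162 against 24.9, 1372 and 1922 FPKM, below both controls in 40Gy-1 and far above them in 40Gy-2 and 40Gy-3 (adjusted p = 0.687; 0.00177 without 40Gy-1). The periportal hepatocyte list, which shares genes with these pathways, had 2 falls of 13 (medians -1.37, 0.40 and 0.34), and the pericentral list 0 of 12 (-0.22, 0.60 and 0.47). Without 40Gy-1 4 periportal genes rose and 2 fell, and 1 pericentral gene rose and 1 fell. PC was lost without control-2 (0.0736), and OTC without control-1 (0.159) or 40Gy-2 (0.0698). CREB3L3 was lost without each of 7 libraries, all but 20Gy-2, 20Gy-3, 30Gy-3 and 40Gy-1 (0.0504 to 0.166), and FBP1 without each of 9, all but 40Gy-1 and 40Gy-3 (0.0601 to 0.232).

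Of 15 cytochromes P450, enzymes that oxidize drugs, steroids and retinoids, 1 rose and 2 fell (median -0.02), beside 2.99% and 4.41% of all genes, and without 40Gy-1 4 rose and 5 fell. CYP26A1 rose, and CYP2A19 and CYP2U1 (13.4 and 9.37 against 3.15, 4.9 and 4.5 FPKM, -1.25, adjusted p = 0.021) fell. CYP2E1, which oxidizes ethanol, was at 1310 and 1092 against 1385, 1859 and 1730 FPKM, above both controls in all 3 without passing (0.46, adjusted p = 0.871). Of 15 conjugation enzymes 1 rose and 5 fell (median -0.58), beside 2.99% and 4.41% of all genes. Without 40Gy-1 4 rose and 7 fell. SULT1B1, a sulfotransferase, was at 5.2 and 10.3 FPKM in control, at 0.601 in 40Gy-1 and is listed at 0 in 40Gy-2 and 40Gy-3 (adjusted p = 0.00109). GSTK1, a mitochondrial and peroxisomal glutathione transferase, was at 250 and 164 against 84.7, 84.2 and 78.9 FPKM (-1.28, SE 0.21, adjusted p = 0.00719). TST and MPST, neighbouring sulfur transferase genes whose annotated spans overlap, fell by 1.41 and 2.63, and GSTO1 fell by 1.47, whereas GSTM3 rose by 1.19 from under 1 FPKM. Sulfotransferases too have near-identical copies.

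Of 18 bile acid genes 1 rose and 2 fell (median -0.21), beside 2.99% and 4.41% of all genes. Without 40Gy-1 4 rose and 6 fell. SLC51A, a subunit of the transporter that lets bile acids out of the cell towards blood, is listed at 0 in both controls and was at 7.2, 1.56 and 1.55 FPKM at 40 Gy (adjusted p = 0.0267). SLC27A5, which activates bile acids for conjugation, was at 811 and 695 against 371, 204 and 157 FPKM (-1.71, SE 0.321, adjusted p = 0.0126), and AKR1D1 of bile acid synthesis fell by 1.18. CYP7A1, the rate-limiting enzyme of bile acid synthesis, was at 15 and 1.86 FPKM in control against 54.5, 0.778 and 0.631, so that 40Gy-1 was above both controls and the other two below both (adjusted p = 0.914); it overlaps SDCBP. For the detoxifying and bile acid genes, without control-1 the calls of CYP2U1 (0.166), SLC27A5 (0.102), SLC51A (0.142), GSTK1 (0.0584) and TST (0.113) were lost. Without control-2 those of CYP2U1 (0.0537), SLC27A5 (0.0604), SLC51A (0.125), MPST (0.0758) and TST (0.108) were lost, and TST also without 40Gy-2 (0.0775) or 40Gy-3 (0.0518). GSTM3 (0.0514 to 0.25), CYP2A19 (0.052 to 0.196), GSTO1 (0.0513 to 0.272) and AKR1D1 (0.0531 to 0.268) were lost without each of 8, 8, 9 and 10 libraries, but not without 40Gy-1.

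Albumin was lower at 40 Gy, and the median of the acute-phase list was above control in 2 of the 3 libraries. ALB, the main plasma protein, was at 42547 and 27026 FPKM in control against 10810, 7119 and 7050, and fell by 2.06 (SE 0.301, adjusted p = 0.0045) with all 3 irradiated libraries far below both controls. With quantile normalization its call was lost (adjusted p = 0.0595). TTR, transthyretin, was at 7163 and 3250 against 2221, 490 and 642 FPKM, and fell by 2.44 (SE 0.562, adjusted p = 0.0291). These were the 2 falls among 18 secreted plasma proteins, beside 4.41% of all genes, with none rising. The median of the list was -0.62, and per library -0.12, -0.99 and -1.01. Without 40Gy-1 7 fell. ALB, TTR, APOC3 and ASGR1, the asialoglycoprotein receptor (fall by 1.43), were the 4 falls among the 13 hepatocyte markers (median -0.62). Without 40Gy-1 5 of the 13 fell and 2 rose, TAT and CPS1. With quantile normalization the calls of TTR (adjusted p = 0.0773), APOC3 (0.0602) and ASGR1 (0.0642) were lost, like that of ALB. Of 14 acute-phase genes 1 rose, ITIH4, with medians of -0.14 in 40Gy-1, 1.11 in 40Gy-2 and 1.27 in 40Gy-3, and 6 rose and none fell without 40Gy-1. CRP, C-reactive protein, was at 478 and 176 against 510, 1925 and 2666 FPKM (2.24, adjusted p = 0.13), with 40Gy-1 close to control-1. HAMP, the iron hormone hepcidin, was at 42.7 and 170 against 38.8, 496 and 839 FPKM, below both controls in 40Gy-1 and above both in the others (adjusted p = 0.411).

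Of 21 clotting genes 1 fell (median -0.00), and without 40Gy-1 1 rose and 5 fell. Their summed FPKM was 27332 and 15090 in control against 16988, 33637 and 35256, with 40Gy-1 inside the range of the controls and the other two above it. The fall was KNG1, kininogen, from 751 and 454 to 325, 245 and 223 FPKM (-1.16, SE 0.259, adjusted p = 0.0262). With quantile normalization this call was lost (adjusted p = 0.109). Of 21 complement genes 1 fell (median -0.05), and without 40Gy-1 1 rose and 5 fell. The fall was C8G, from 366 and 332 to 149, 113 and 176 FPKM (-1.27, adjusted p = 0.0169; it overlaps LOC110258194). For the plasma protein genes, without control-1 the calls of ASGR1 (0.107), APOC3 (0.053), KNG1 (0.191), C8G (0.114) and ITIH4 (0.0873) were lost. Without control-2 those of ASGR1 (0.085), C8G (0.0736) and ITIH4 (0.103) were lost, without 40Gy-2 those of KNG1 (0.0862), C8G (0.0593) and ITIH4 (0.0593), and KNG1 also without 30Gy-1 (0.0514), 30Gy-2 (0.0526) or 40Gy-3 (0.0671). TTR was lost without each of 6 libraries, all but 20Gy-1, 20Gy-2, 20Gy-3, 30Gy-3 and 40Gy-1 (0.0521 to 0.215).

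Of 21 targets of NRF2, the transcription factor of the antioxidant response, 4 rose, none fell and 11 lay above both controls in all 3 libraries, beside 2.99%, 4.41% and 19.5% of all genes (median 0.62; per library 0.40, 0.72 and 0.71), and without 40Gy-1 9 rose and 1 fell. Besides SRXN1 and ME1, UGDH, which makes UDP-glucuronic acid, was at 14.7 and 8.12 FPKM in control against 32, 34.2 and 34.1 (1.53, SE 0.26, adjusted p = 0.00875). GCLM, the regulatory subunit of glutathione synthesis, was at 8.37 and 8.21 against 11.9, 24.3 and 26.2 FPKM (1.16, SE 0.282, adjusted p = 0.0371). TXNRD1, thioredoxin reductase, was at 18.8 and 16.8 against 18.5, 46.6 and 43.6 FPKM, so that 40Gy-1 stayed between the controls (adjusted p = 0.184; 0.009 without it). HMOX1, the heme-degrading enzyme, was at 109 and 123 against 127, 96.2 and 96.3 FPKM (adjusted p = 0.818).

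Of 20 drivers of ferroptosis, cell death by oxidized membrane lipids, 1 rose and none fell (median 0.03 beside 0.06 over all genes), and without 40Gy-1 5 rose and 2 fell. The rise was ACSL4. This enzyme, which loads polyunsaturated fatty acids into membrane lipids, was at 3.26 and 2.37 FPKM in control against 28.6, 13.1 and 12.5, and rose by 2.23 (SE 0.365, adjusted p = 0.00723), highest in 40Gy-1 and above both controls in all 3. Of 21 suppressors 2 rose, SCD and GCLM, and 1 fell (median 0.39), and without 40Gy-1 6 rose and 2 fell. The fall was PRDX6, a peroxiredoxin that repairs oxidized phospholipids, from 261 and 237 to 88.4, 78.3 and 95.8 FPKM (-1.50, SE 0.193, adjusted p = 0.00254; it overlaps LOC100624136). None of 27 iron-handling genes passed (median 0.01), whereas without 40Gy-1 5 rose and 3 fell. TFRC, the transferrin receptor, was at 10.9 and 4.04 against 4.57, 4.11 and 4.24 FPKM, level among the irradiated libraries and inside the range of the controls (adjusted p = 0.411). Without control-1 the call of ME1 (0.151) was lost, without control-2 those of UGDH (0.0691), ME1 (0.0774) and ACSL4 (0.0629), and GCLM without each of 9 libraries, all but 20Gy-2 and 40Gy-1 (0.0502 to 0.164).

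Of 16 cell cycle genes 6 rose, where 2.99% of all genes rose, and none fell (median 0.89; per library 1.31, 0.64 and 0.43). In 13 all 3 libraries lay above both controls, where 19.5% of all genes did, and without 40Gy-1 7 rose and none fell. CCNB1, the cyclin of entry into mitosis, was at 0.183 and 0.225 FPKM in control against 1.99, 1.81 and 2.17, and rose by 1.31 (SE 0.146, adjusted p = 0.00152), level across the irradiated libraries. CCND1, the cyclin of G1, was at 4.58 and 7.2 against 34, 27.4 and 24.4 FPKM, and rose by 2.12 (SE 0.337, adjusted p = 0.00662). STMN1, which destabilizes microtubules, was at 3.22 and 3.79 against 33.4, 14.4 and 11.3 FPKM, and rose by 2.06 (SE 0.346, adjusted p = 0.00824). BIRC5, MCM6 and TOP2A rose by 1.15, 0.96 and 0.90, the last 2 from under 1 FPKM. MCM2, a replication helicase subunit, was at 0.441 and 0.445 against 4.4, 1.06 and 0.796 FPKM, higher in all 3 and mostly in 40Gy-1 (adjusted p = 0.267). The summed FPKM of the list was 31.2 and 28 in control and 123, 73.1 and 64.9 at 40 Gy. At 20 and 30 Gy the sum was 76.3 to 100. Against these lower doses the median was -0.16, with 2 genes higher and none lower, beside 11.8% and 9.71% of all genes.

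None of 20 targets of p53, the transcription factor of the DNA damage response, passed (median -0.04), and without 40Gy-1 2 rose and 3 fell. All 3 irradiated libraries lay above both controls in 5 of them and below both in 5, beside 19.5% and 17.9% of all genes. FAS, a death receptor, was at 2.02 and 1.57 FPKM against 4.21, 4.08 and 2.85 (0.75, adjusted p = 0.0604), and DDB2, a damage sensor, at 4.69 and 3.09 against 2.82, 1.86 and 1.06 (-0.77, adjusted p = 0.0841). Of 23 repair genes 1 rose (median 0.09), and without 40Gy-1 4 rose and 4 fell. The rise was NBN of the complex that senses double-strand breaks, from 6.97 and 5.26 to 9.04, 10.8 and 11.4 FPKM (0.69, adjusted p = 0.0431). None of 11 senescence genes (median 0.45) and none of 16 apoptosis genes (median 0.18) passed. Without 40Gy-1 1 senescence gene rose, and 1 apoptosis gene rose and 2 fell.

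Among 19 immediate early genes, which cells switch on within minutes of a stimulus, all 3 irradiated libraries were above both controls in 17, beside 19.5% of all genes (median 1.17; per library 0.99, 1.10 and 0.96). In the test 3 rose, beside 2.99% of all genes, and 7 without 40Gy-1, and none fell in either fit. The 3 were IER3, IER5 (4.11 and 4.77 against 14, 11.9 and 8.34 FPKM, 1.17, adjusted p = 0.0341) and KLF4 (0.89, adjusted p = 0.021). MYC was at 5.22 and 5.76 against 28.3, 77.1 and 51.9 FPKM (2.93, adjusted p = 0.207), where the spread within the 20 and 30 Gy groups also entered the test. Of 23 genes of the unfolded protein and integrated stress response 1 fell, the serine synthesis enzyme PHGDH (by 2.06, adjusted p = 0.0382, median 0.51), and none of 16 heat shock genes passed (median -0.03). Of 16 hypoxia genes HIF1A rose, by 0.77 (median 0.06). Without 40Gy-1 the counts were 2 rises and 2 falls, 1 and 1, and 2 and 2 in these 3 lists. None of 7 genes of metallothioneins and metal sensing passed (median 0.60), whereas 4 rose without 40Gy-1: MT3 was at 1.98 and 1.88 against 0.834, 225 and 368 FPKM. For these genes and those of the cell cycle, without control-1 the calls of CCND1 (0.0699), STMN1 (0.0736), MCM6 (0.107), BIRC5 (0.0904), HIF1A (0.0757) and KLF4 (0.107) were lost. Without control-2 those of STMN1 (0.0501), MCM6 (0.0783), BIRC5 (0.144), HIF1A (0.11) and KLF4 (0.111) were lost. BIRC5 (0.0739), HIF1A (0.0638) and KLF4 (0.0712) were lost without 40Gy-2, and BIRC5 without 40Gy-3 (0.0631). TOP2A (0.058 to 0.166), IER5 (0.0551 to 0.19), IER3 (0.0518 to 0.207), NBN (0.0537 to 0.249) and PHGDH (0.0502 to 0.245) were lost without each of 7, 6, 7, 10 and 10 libraries, but not without 40Gy-1.

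Of 35 matrix genes 5 rose and none fell, beside 2.99% and 4.41% of all genes (median 0.58; per library 1.59, 0.35 and 0.08). In 13 all 3 libraries lay above both controls, beside 19.5% of all genes, and without 40Gy-1 8 rose and 2 fell. The laminin chain LAMB3, which fell by 3.64 (adjusted p = 0.00516), was not in that list. LAMC1, a laminin chain, was at 1.9 and 1.7 FPKM in control against 5.37, 5.94 and 4.92, and rose by 1.19 (SE 0.144, adjusted p = 0.00206). MMP2, a gelatinase, was at 2.46 and 2.15 against 13, 11.5 and 6.76 FPKM, and rose by 1.75 (SE 0.291, adjusted p = 0.00787). TIMP3, a protease inhibitor, was at 14 and 14.3 against 30.6, 60.4 and 50.3 FPKM, and rose by 1.61 (SE 0.29, adjusted p = 0.0111); it overlaps SYN3. COL14A1, a fibril-associated collagen, rose by 1.31 and the laminin chain LAMB1 by 0.78. These 5 were shared by all 3 libraries. But 23 of the 35 were over 1 log2 higher in 40Gy-1 than in the mean of 40Gy-2 and 40Gy-3, beside 11.1% of all genes. COL1A1, the main collagen of scars, was at 1.69 and 1.34 against 139, 3.24 and 1.45 FPKM (2.18, adjusted p = 0.34), and TIMP1 at 2.19 and 2.33 against 134, 7.71 and 7.16 (2.71, adjusted p = 0.121). COL1A1 exceeded both controls in 40Gy-1 and 40Gy-2, and TIMP1 in all 3.

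None of 17 stellate cell markers passed, and without 40Gy-1 2 fell. Their median was 1.06 in 40Gy-1, 0.07 in 40Gy-2 and -0.29 in 40Gy-3 (0.25 for the group), and their summed FPKM 126 and 187 in control against 537, 133 and 115. The list itself holds the collagen genes COL1A1 and COL3A1, at 139 and 107 FPKM in 40Gy-1. Its sum and the collagen values are therefore not separate, and the part of stellate cells in the matrix values was not tested. Of 19 genes of the TGF-beta pathway, the main fibrogenic signal, 1 rose and 1 fell (median 0.02), and without 40Gy-1 2 rose and 5 fell. TGFBR1, a receptor, was at 0.916 and 0.809 against 2.61, 2.36 and 2.93 FPKM (0.96, SE 0.176, adjusted p = 0.0119), and INHBE, an activin chain made by hepatocytes, at 25.6 and 36.6 against 10.3, 0.835 and 0.941 (-3.21, SE 0.796, adjusted p = 0.0393).

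Neither endothelial list had a called gene, with or without 40Gy-1. Of 12 markers of the sinusoidal endothelium, the cells that line the liver's capillaries, none passed (median -0.37). In all 3 libraries 4 of the 12 lay below both controls, beside 17.9% of all genes. The sum of the markers was 566 and 449 FPKM in control against 128, 409 and 398, lowest in 40Gy-1. CRHBP, 1 of these markers, is listed at 0 in 40Gy-3. None of 18 vascular markers passed (median 0.26; sums 173 and 157 against 310, 205 and 158). For the matrix and TGF-beta genes, without control-1 the calls of MMP2 (0.0536), TIMP3 (0.0794), COL14A1 (0.0736) and TGFBR1 (0.0693) were lost, and without control-2 the same 4, at 0.0612, 0.0666, 0.0847 and 0.076. INHBE was lost without each of 8 libraries, all but 20Gy-2, 30Gy-3 and 40Gy-1 (0.0567 to 0.189), and LAMB1 without each of 9, all but control-2 and 40Gy-1 (0.0513 to 0.255).

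**Figure D4:**
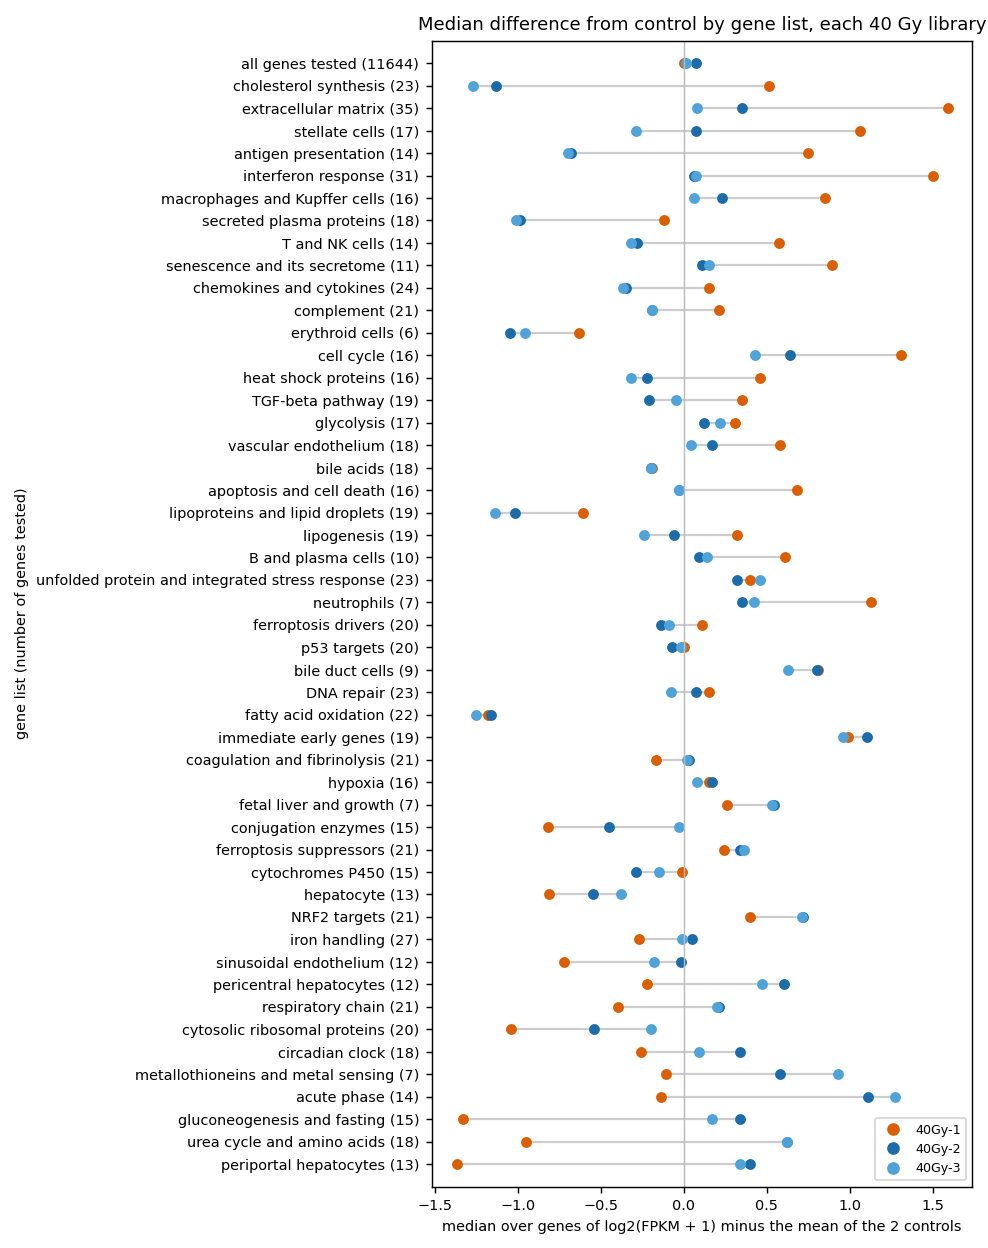
Median log2 difference from the control mean over each of the 49 gene lists and over all genes, for 40Gy-1, 40Gy-2 and 40Gy-3 separately, ordered by how far 40Gy-1 lies from the other two. Fatty acid oxidation lies near -1.2 in all 3, whereas cholesterol synthesis is 0.51 in 40Gy-1 and -1.13 and -1.27 in the others.

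Of 16 markers of macrophages and Kupffer cells, the resident macrophages of the liver, 2 rose and 1 fell. Over all genes the shares were 2.99% and 4.41%. The median of the list was 0.51, and per library 0.85, 0.23 and 0.06. Without 40Gy-1 5 rose and 2 fell. GPNMB, a glycoprotein of lipid-laden macrophages, was at 8.64 and 9.74 FPKM in control against 69.1, 52.6 and 45.6, and rose by 2.46 (SE 0.401, adjusted p = 0.00719), as did MARCO. CLEC4F, a lectin of Kupffer cells, was at 25.7 and 11.3 against 8.73, 1.21 and 1.66 FPKM, and fell by 2.23 (SE 0.56, adjusted p = 0.0404). The pan-macrophage gene CD68 was at 31.7 and 27.2 against 79.7, 42 and 28.8 FPKM (0.63, adjusted p = 0.474). The summed markers were at 1225 and 956 FPKM in control against 1694, 1150 and 999, so that the groups overlapped. Of 7 neutrophil genes 2 rose, at low levels (median 0.67; sums 19.5 and 14.3 against 45.5, 28.5 and 35.6): S100A12, a calcium-binding alarmin (1.79), and CSF3R, the receptor of the growth factor G-CSF (1.07). Without 40Gy-1 3 of the 7 rose.

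Of 10 genes of B and plasma cells 2 rose and 1 fell (median 0.30), beside 2.99% and 4.41% of all genes. The counts were the same without 40Gy-1. JCHAIN, which joins the chains of IgA and IgM, was at 10.2 and 8.28 FPKM in control against 77.4, 60.2 and 44.9, and rose by 2.56 (SE 0.256, adjusted p = 0.00109). MZB1, a chaperone of antibody secretion, was at 1.5 and 1.99 against 18.8, 6.34 and 6.87 FPKM, and rose by 1.94 (SE 0.354, adjusted p = 0.0118); it overlaps SLC23A1. CD79A of the B-cell receptor went down, from 33 and 31 to 12.6, 15.7 and 19.2 FPKM (-0.99, SE 0.195, adjusted p = 0.0159). None of 14 T and NK cell genes passed (median -0.04; per library 0.57, -0.28 and -0.32), and without 40Gy-1 3 fell. Of 9 bile duct markers CLDN7, a tight junction protein, rose by 1.65 (median 0.78), and 1 rose without 40Gy-1. Both falls among 6 erythroid genes were globins, HBB and HBM (-2.13; it overlaps NPRL3); these genes summed to 838 and 114 FPKM in control against 61.1, 16.4 and 18.3, with control-1 far above control-2. Without 40Gy-1 3 of them fell.

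Interferon and antigen presentation genes again separated 40Gy-1. Of 31 interferon-response genes 1 rose, beside 2.99% of all genes (median 0.62, and per library 1.50, 0.06 and 0.07). In 40Gy-1, 22 were more than 1 log2 higher than in the mean of 40Gy-2 and 40Gy-3, beside 11.1% of all genes. Without 40Gy-1 1 rose and 4 fell. RIGI, a sensor of viral RNA, was at 5.54 and 4 FPKM in control against 32.6, 12.4 and 11.5, and rose by 1.64 (SE 0.389, adjusted p = 0.0334). ISG15, a ubiquitin-like protein, was at 56.2 and 29.1 against 628, 65.6 and 87.3 FPKM (1.90, adjusted p = 0.162), and MX1, an antiviral GTPase, at 32.2 and 16.2 against 187, 23.9 and 23.5 (adjusted p = 0.421). ISG15 was thus above both controls in all 3 and MX1 in 40Gy-1 alone. None of 14 antigen presentation genes passed (median -0.26; per library 0.75, -0.68 and -0.70), and without 40Gy-1 1 rose and 6 fell. Of 24 chemokines and cytokines 2 fell and none rose (median -0.09), and without 40Gy-1 6 fell. The 2 were CCL16, and CCL4 from 1208 and 568 to 361, 179 and 214 FPKM (-1.78, SE 0.381, adjusted p = 0.0218). CCL11 was not in that list. For the genes of blood and immune cells, without control-1 the calls of GPNMB (0.0651), MZB1 (0.0993), CD79A (0.107), CLDN7 (0.106), HBM (0.133) and CCL4 (0.175) were lost. Without control-2 those of CSF3R (0.12), MZB1 (0.058) and CD79A (0.0736) were lost. Without 40Gy-2 those of CSF3R (0.0543), CD79A (0.0519), HBM (0.0516) and CCL4 (0.0782) were lost, and CCL4 also without 40Gy-3 (0.0579). S100A12 (0.0546 to 0.233), RIGI (0.0509 to 0.183), HBB (0.0622 to 0.314), MARCO (0.0501 to 0.252) and CLEC4F (0.0506 to 0.263) were lost without each of 6, 6, 7, 8 and 10 libraries, but not without 40Gy-1.

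Gene by gene, 1290 genes (11.1%) were more than 1 log2 higher in 40Gy-1 than in the mean of 40Gy-2 and 40Gy-3, and 820 (7.04%) more than 1 log2 lower. Between 40Gy-2 and 40Gy-3, 173 (1.49%) were that far apart. These values describe single libraries and were not tested. The genes highest in 40Gy-1 relative to the others were HSD17B2, a steroid dehydrogenase, at 135 FPKM against 0.917 and 0.782, then COL1A1 and CYP7A1, and SLC22A7, an anion transporter of hepatocytes, at 177 against 5.47 and 5.48. MBL2, a lectin of complement, stood at 155 FPKM against 6.24 and 10.1, and COL3A1, a collagen, at 107 against 5.45 and 6.04. Among the genes lowest in 40Gy-1 were enzymes of drug and amino acid metabolism. FMO1, a flavin monooxygenase, was at 5.06 FPKM against 1145 and 1203, and CYP1A2 at 22.3 against 669 and 651. SDS stood at 24.9 against 1372 and 1922, and HAL, which breaks down histidine, at 24.8 against 574 and 463. MTMR7, a phosphoinositide phosphatase, was at 5.24 against 124 and 127, and GPSM1, a modulator of G proteins, at 1.26 against 65.2 and 47. Genes of hepatocytes thus stood on both sides.

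**Figure D5:**
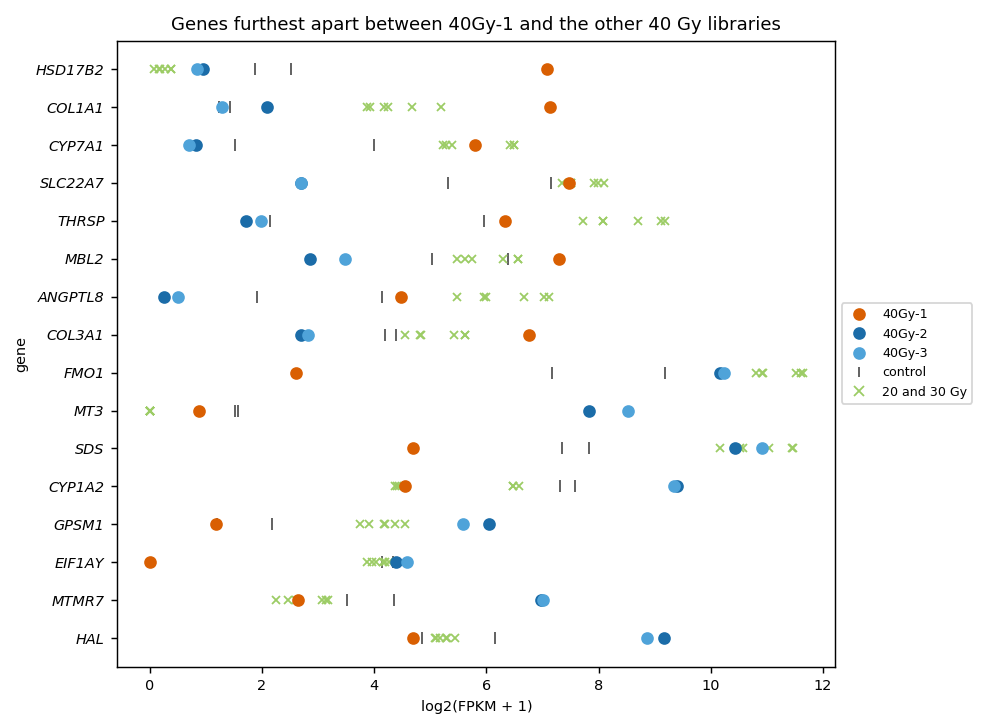
FPKM (log axis, as FPKM + 1) of the 8 genes highest and the 8 lowest in 40Gy-1 relative to 40Gy-2 and 40Gy-3. Ticks mark the controls and crosses the 20 and 30 Gy libraries; FMO1 is at 5.06 in 40Gy-1 and at 1145 and 1203 in the others of its group.

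The lower doses share the day of sampling with 40 Gy, and set 6 libraries against its 3. Of 11644 genes 2508 passed (21.5%), 1377 higher than the mean of the 20 and 30 Gy groups (11.8%) and 1131 lower (9.71%). With values rescaled by median-of-ratios factors, 2386 passed, 1041 higher and 1345 lower, so the balance of directions depends on the scaling. Leaving out 1 library gave 846 genes without 40Gy-2, 1187 without 40Gy-3, 1625 without 20Gy-1 and 4611 without 40Gy-1. Without 20Gy-3 and 30Gy-3 1177 passed, and with the other near-identical pair averaged as well 202. Both comparisons share the 40 Gy libraries.

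The genes most above the lower doses were led by SULT1A3, a sulfotransferase for phenols and catecholamines, and held the metallothioneins MT3 and MT1X. SULT1A3 was at 78, 206 and 214 FPKM at 40 Gy against 0.424 to 3.06 in the 6 libraries at 20 and 30 Gy (5.99, SE 0.414, adjusted p = 5.01e-05); it overlaps BOLA2B, and against control its difference was 1.98 (adjusted p = 0.052). MT1X, a metallothionein, which binds zinc and copper, was at 1679, 7340 and 14684 FPKM against 93.2 to 165 (5.38, SE 0.537, adjusted p = 2.41e-04). Control liver held 7269 and 6127, so the 40 Gy libraries overlapped control and lay above the lower doses (-0.24 against control, adjusted p = 0.867). MT3 was at 0.834, 225 and 368 and is listed at 0 in all 6 (adjusted p = 0.0149). SCNN1B, a subunit of the epithelial sodium channel, was at 8.97, 31.6 and 27.4 against 0.172 to 0.365 FPKM (4.07, SE 0.406, adjusted p = 2.41e-04). GLOD5 and FSTL3 were higher here too, by 5.92 and 3.31. MT3 was lost without 40Gy-2 (adjusted p = 0.0839) or 40Gy-3 (0.068). Metallothioneins are near-identical copies, so their single values are uncertain.

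Most below the lower doses stood CBR2, EXTL1 and the chemokine CXCL9, with IDI1, THRSP and ANGPTL8 of lipid metabolism. CXCL9, a chemokine induced by interferon-gamma (chr8:71665541-71670236), was at 2.6, 0.78 and 0.845 FPKM at 40 Gy against 67.3 to 93.6 at 20 and 30 Gy (-5.16, SE 0.226, adjusted p = 4.92e-06). In control it was at 2.53 and 2.15, level with 40Gy-1 and above the other two. CBR2, a carbonyl reductase, was at 14.8, 53.9 and 33.1 against 1362 to 4690 FPKM (-6.30, SE 0.557, adjusted p = 1.53e-04; it overlaps LOC102160997), and EXTL1, a glycosyltransferase, at 7.36, 0.386 and 0.278 against 75.4 to 142 (-5.41, SE 0.557, adjusted p = 2.99e-04). IDI1 of cholesterol synthesis was at 213, 23.4 and 32.8 against 1408 to 1974 FPKM (-4.92, SE 0.552, adjusted p = 4.85e-04). THRSP, a lipogenic nuclear protein, was at 79.3, 2.27 and 2.93 against 210 to 577 FPKM (-5.14, SE 1.04, adjusted p = 0.00851), and ANGPTL8, which restrains lipoprotein lipase, at 21.4, 0.195 and 0.409 against 43.7 to 138 (-4.63, SE 0.873, adjusted p = 0.00615). In IDI1, THRSP and ANGPTL8, 40Gy-1 lay nearest to the lower doses. THRSP was lost without 40Gy-2 (0.0544).

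The lists are read here beside 11.8% of all genes higher and 9.71% lower at 40 Gy than at 20 and 30 Gy. Of 23 cholesterol genes 18 were lower and none higher. Of 19 lipogenesis genes 11 were lower and none higher. SCD, above control at 40 Gy, averaged 227 FPKM at the lower doses, a difference of -2.25. Fatty acid oxidation had 9 of 22 genes lower and 1 higher, secreted plasma proteins 6 of 18 lower, and T and NK cells 6 of 14 lower. Metallothioneins and metal sensing had 4 of 7 higher, acute-phase genes 4 of 14 higher, neutrophil genes 5 of 7 higher and repair genes 5 of 23 higher. None of these lists had a call in the other direction except fatty acid oxidation.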

How the data were processed

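Total RNA of pig liver was read as paired-end 150 bp reads, per the labels' protocols. The authors deposited 1 table of FPKM values for 12505 genes in 11 libraries. Per the submitters' processing notes, HTSeq, HISAT2 and Cufflinks were used, with the builds Sscrofa11.1 and mm10; neither their settings nor the annotation nor the use of strand is given in the sources used here. Reads of overlapping genes may therefore be mixed. An exact 0 can be a failed estimate and is written as listed at 0. FPKM divides by the library's total, so a few abundant genes can shift the rest.

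Symbols were found for 10561 genes, and coordinates, matched by symbol, are those of the RefSeq table of Sscrofa11.1. Values were taken as log2(FPKM + 1). Genes of at least 1 FPKM in at least 2 libraries entered a limma fit (limma 3.58.1, R 4.3.3; 4 group means, variances moderated with a trend), with two-sided tests and Benjamini-Hochberg adjustment. Named genes have a symbol, an adjusted p under 0.05, groups that do not overlap, and a mean of 5 FPKM or more in one of them. Of these the 12 largest rises and falls are given, and 6 of each against the lower doses. Up to 5 members per list by smallest adjusted p are named, with others the description needs. The 49 lists are described by counts and medians, with no test of a list. Members and lists were chosen with earlier results of these data known. A few members of the lists are not reported here by name.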

Additional observations from a re-analysis of the deposited data

How the results depend on the processing

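Against control, 861 genes passed, and 686 to 911 did so under another pseudocount, filter, scaling or moderation. With array weights 3138 passed, with 30Gy-1 and 30Gy-2 averaged 548, with the pair 20Gy-3 and 30Gy-3 left aside 551, with both steps 123, and with the 2 groups alone 48; leaving out 1 library gave 224 to 2655. Against the lower doses, 2508 passed, with array weights 6824, with that pair left aside 1177 and with both steps 202; leaving out 1 library gave 846 to 4611. The cause of these differences was not tested. The share of higher calls against control was 40.4%, and 50.7% without 40Gy-1, 51.2% with array weights and 52.1% with the 2 groups alone. Against the lower doses it was 54.9%, and 43.6% with median-of-ratios scaling. The median of all genes moved by less than 0.1 under each scaling. The 106 genes followed against control gave 2635 values over 25 alternatives, of which 592 lost the call and none reversed. They were lost for 89 of 105 genes in the 2 groups alone and for 28 of 106 with quantile normalization. Among those 28 were ALB, TTR, APOC3, ASGR1, KNG1, OTC and CREB3L3. The call was kept by 12 genes in every alternative that tested them, 25 for each except SULT1B1 (23). Of the 12 genes followed against the lower doses 9 kept it under all 25.

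Replicate numbers are shared by the groups, but no label says that a number marks an animal. Deviations of same-numbered libraries correlated at 0.21 and 0.22 between control and 40 Gy. With 2 controls their deviations mirror each other, so these values are not separate. Between 20 and 30 Gy the correlations were -0.73, 0.66 and 0.59 for replicates 1, 2 and 3. Differently numbered pairs ran from -0.84 to 0.82. With the replicate block, 805 genes passed against control and 2554 against the lower doses.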

Other observations

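Clock, growth and ribosomal genes belong to none of the groups above. Of 18 genes of the circadian clock 2 fell at 40 Gy and none rose (limma, median 0.13 beside 0.06 over all genes), and without 40Gy-1 4 rose and 3 fell. NR1D1, a repressor within the clock, was at 4.61 and 6.77 FPKM in control against 2.93, 1.21 and 0.955, and PER2 at 7.32 and 2.91 against 1.16, 1.4 and 0.962. They fell by 1.36 and 1.40 (adjusted p = 0.0182 and 0.0222), with every irradiated library below both controls. The hour of sampling is not given in the labels used here. NR1D1 overlaps THRA. It no longer passed without 40Gy-2 (0.0675), control-1 (0.0585) or control-2 (0.134), nor did PER2 without control-1 (0.159), 40Gy-2 (0.0566) or 40Gy-3 (0.0604).

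Of 7 genes of fetal liver and growth 1 rose and 1 fell (limma, median 0.47), and without 40Gy-1 2 rose and 2 fell. IGFBP2, a carrier of insulin-like growth factors, was at 309 and 512 FPKM against 782, 1609 and 1518, a rise of 1.64 (adjusted p = 0.0174). GPC3, a cell-surface proteoglycan of fetal liver, was at 172 and 94.3 against 50.5, 36.1 and 39.9 FPKM, a fall by 1.59 (adjusted p = 0.00676). AFP, the classical fetal protein, is listed at 0 in at least 1 of the 5 libraries. Of 20 cytosolic ribosomal protein genes 12 lay below both controls in all 3 libraries, beside 17.9% of all genes. Their median was -1.04 in 40Gy-1, -0.54 in 40Gy-2 and -0.20 in 40Gy-3, and their sum 17182 and 16885 FPKM in control against 7897, 11660 and 14729. Without control-1 the calls of GPC3 (0.0501) and IGFBP2 (0.148) were lost, and without 40Gy-2 that of IGFBP2 (0.0632).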
